A study of Mus musculus with 2 samples.

Results

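The 10 tubulin genes described here are the alpha-tubulin genes Tuba1a, Tuba1b and Tuba1c, the beta-tubulin genes Tubb2a, Tubb2b, Tubb4a, Tubb4b, Tubb5 and Tubb6, and the gamma-tubulin gene Tubg1. They are 10 of 21887 protein-coding genes on chromosomes 1 to 19, X and Y in the RefSeq table (assembly GRCm38.p6, which is mm10). Each peak sharing 1 bp or more with a gene or with the 1 kb flanking it on either side was given to that gene. This rule gave 12 of the 19265 peaks in the authors' list of H3K4me3 peaks to the 10 genes. H3K4me3 is histone H3 trimethylated at lysine 4, a mark that in mammals lies over the starts of active and poised genes.

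The study measured H3K4me3 by chromatin immunoprecipitation and sequencing in mouse neural progenitor cells of adult origin, grown untreated with EGF and bFGF in N2 medium. There was 1 H3K4me3 library, whose title carries the mark "con" with no meaning given, and 1 input library of the same cells, against which the peaks were called. No strain, genotype, age beyond adult, or number of animals or cultures is given in the labels. With 1 library, no value below has an error between cultures, and no test between groups was possible. The filtered libraries held 18156769 tags for H3K4me3 and 17831241 for the input.

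The marker genes of the labelled cell type carried the mark. A peak lay at 61.5% of all protein-coding genes. All 10 neural progenitor markers had a peak, among them Sox2, Nes, Hes1 and Pax6. Their median fold enrichment was 38.5 for the strongest peak of each gene, close to the 39.1 of all protein-coding genes with a peak. A peak lay at 4 of 8 neuronal, 3 of 8 microglial, 4 of 6 endothelial and 2 of 5 oligodendrocyte lineage markers. The median fold enrichment of the marked genes was 19.6 for neuronal, 17.4 for microglial, 10.97 for endothelial and 24.96 for oligodendrocyte lineage markers. The marker with the highest fold enrichment in each of these lists was named after its value was seen. For endothelium this was Flt1 (42.7, 462 tags), and for the oligodendrocyte lineage Pdgfra, a precursor marker (39.1, 594 tags). For microglia it was Cd68 (31.8, 233 tags), at a peak also within 1 kb of Mpdu1. For neurons it was Gad1 of inhibitory neurons (28.2, 357 tags). No peak lay at the neuronal markers Dcx, Rbfox3, Neurod2 and Tbr1, or at the oligodendrocyte lineage markers Mog, Mag and Sox10. The endothelial markers Cdh5 and Cldn5 and the microglial markers Aif1, Itgam, Cx3cr1, Csf1r and Tmem119 also had none. The part of other cell types in the values at tubulin genes was not tested.

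Alpha- and beta-tubulin form the heterodimer from which microtubules are built, and gamma-tubulin sits in the ring complex that starts a new microtubule. Mammals carry several genes of each kind. Some of these isotypes are made by nearly all cells, while others belong mainly to neurons, oligodendrocytes, platelets or testis. Dividing progenitors use microtubules for the mitotic spindle and the primary cilium, and young neurons use them to migrate and to grow an axon.

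RefSeq promoter sequences of GRCm38.p6 were matched by symbol for 7 of the 10 genes, leaving Tubb2b, Tubb6 and Tubg1. The 150 bases before the annotated start are shown because in each of these 7 genes, Tubb4a with its weak mark included, the strongest peak lay over the start. Capitals mark CCAAT, the letters of the box that NF-Y binds, TATAAA, the letters of a TATA box, and GGGCGG, the letters of a GC box of Sp factors, each searched on both strands. Tuba1a (chr15:98953502-98953651, minus strand), Tuba1b (chr15:98934391-98934540, minus strand), Tuba1c (chr15:99029741-99029890, plus strand), Tubb2a (chr13:34078009-34078158, minus strand), Tubb4a (chr17:57087601-57087750, minus strand), Tubb4b (chr2:25224703-25224852, minus strand) and Tubb5 (chr17:35838302-35838451, minus strand) read as follows, 5′ to 3′.
Tuba1a: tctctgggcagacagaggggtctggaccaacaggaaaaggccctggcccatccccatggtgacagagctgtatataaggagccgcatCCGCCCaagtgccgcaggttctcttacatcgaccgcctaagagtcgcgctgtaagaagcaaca
Tuba1b: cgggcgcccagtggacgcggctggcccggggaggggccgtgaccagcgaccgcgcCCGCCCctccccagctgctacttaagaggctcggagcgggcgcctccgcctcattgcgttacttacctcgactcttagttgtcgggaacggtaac
Tuba1c: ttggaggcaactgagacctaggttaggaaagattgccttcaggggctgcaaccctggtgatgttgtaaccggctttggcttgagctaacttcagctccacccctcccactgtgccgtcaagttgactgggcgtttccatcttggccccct
Tubb2a: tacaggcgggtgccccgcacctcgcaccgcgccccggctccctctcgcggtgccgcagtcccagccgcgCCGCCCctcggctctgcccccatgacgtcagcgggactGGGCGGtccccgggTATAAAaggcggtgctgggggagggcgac
Tubb4a: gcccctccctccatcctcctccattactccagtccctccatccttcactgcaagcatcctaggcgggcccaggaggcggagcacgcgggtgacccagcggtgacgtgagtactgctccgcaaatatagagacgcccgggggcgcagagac
Tubb4b: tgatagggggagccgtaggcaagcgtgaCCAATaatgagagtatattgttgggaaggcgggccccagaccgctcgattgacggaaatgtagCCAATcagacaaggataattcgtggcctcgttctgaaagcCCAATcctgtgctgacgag
Tubb5: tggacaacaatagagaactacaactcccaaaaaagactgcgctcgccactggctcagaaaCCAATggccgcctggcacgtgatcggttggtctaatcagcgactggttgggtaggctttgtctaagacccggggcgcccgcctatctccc

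The promoters had no common set of these motifs. Over the whole window of 300 bases, from 250 before to 50 after the start, CCAAT was found in 4 of the 7 promoters, against 37.4% of all 32851 promoters in the table. GGGCGG was found in 5 of the 7, against 35.7% of all promoters, and TATAAA in 2 of the 7, against 13.6%. Tubb4b held 5 matches to CCAAT, of which 3 lie in the bases shown, beginning 122, 59 and 19 bases before the start. Tubb5 held 2, beginning 198 and 90 bases before the start. Tubb2a held TATAAA 29 bases before the start, and the TATAAA of Tubb4b began at base 19 after its annotated start. Tubb4a was the promoter of the 7 that matched none of the motifs in 300 bases. No matches overlapped each other. The number of CpG dinucleotides in 300 bases ran from 7 at Tuba1c to 39 at Tuba1b, against a median of 7 over all promoters, with 19 at Tubb4a and 20 at Tubb5. The 32851 promoters belong to 27025 genes, coding and non-coding, so the shares and the median are not those of marked coding genes. Tuba1c, with as few CpG dinucleotides as the median of all these promoters, carried a strong peak over its start, with 855 tags. The summit of that peak lay 581 bp inside the gene, outside the 300 bases in which CpG dinucleotides were counted.

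All 10 tubulin genes had an H3K4me3 peak. The same rule gave a peak to 61.5% of protein-coding genes, or 13462 of 21887. The 10 genes were chosen with earlier results of these data known, so this count and the medians and percentile counts below are a description and no test. In 9 of the 10 genes the strongest peak had a fold enrichment over the input of 40.1 to 70.9 and held 466 to 923 tags. Tubb4a stood apart, with a fold enrichment of 13.3 and 85 tags. The median over the 10 genes was 55.7 for fold enrichment and 569 for tags, against 39.1 and 332 over all protein-coding genes with a peak. Of the 10 genes, 7 lay above the 90th percentile of fold enrichment of those genes, which was 51.4, and 3 lay above the 90th percentile of tags, which was 635. Fold enrichment is the authors' value for each peak, and tags are counts that also grow with the length of a peak. Intervals on tags are exact Poisson 95% intervals and cover counting error only.

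**Figure D1:**
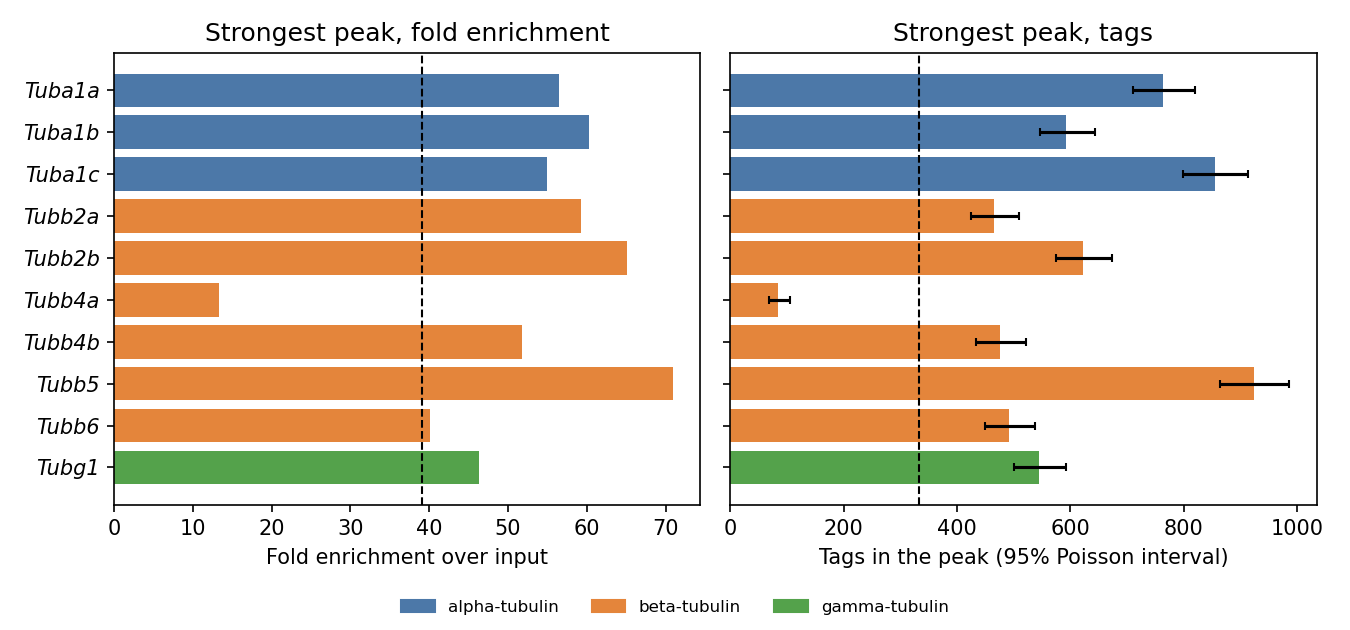
Strongest H3K4me3 peak at each of the 10 tubulin genes in 1 library, with fold enrichment over the input on the left and tags on the right. Error bars are exact Poisson 95% intervals of the tags, dashed lines are the medians over all protein-coding genes with a peak (39.1 and 332), and colours show the tubulin kind. Tubb4a (13.3 and 85 tags) is the one gene below both dashed lines.

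Among the alpha-tubulin genes, Tuba1a encodes the main alpha-tubulin of the developing brain, and Tuba1b and Tuba1c encode close relatives made in many tissues. All 3 genes lie on chromosome 15. The strongest peak of Tuba1b (chr15:98933058-98936005) held 593 tags (interval 546 to 643) with a fold enrichment of 60.3. The peak of Tuba1a (chr15:98951528-98955615) held 764 tags (711 to 820) with 56.4. The peak of Tuba1c (chr15:99028933-99033926) held 855 tags (799 to 914) with 55.0. By fold enrichment Tuba1b was thus the highest of the 3, and by tags the lowest, over the shortest peak (2948 bp against 4088 bp at Tuba1a and 4994 bp at Tuba1c). The tag intervals of Tuba1a and Tuba1c overlapped each other, and neither overlapped that of Tuba1b. Tuba1a had a second, weak peak inside the gene, with 34 tags and a fold enrichment of 11.7.

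The called peaks between the alpha-tubulin genes were weaker than the strongest peaks of these genes. Tuba1b and Tuba1a are 15.5 kb apart, and the weak inner peak of Tuba1a was the only peak between their strongest peaks. Tuba1a and Tuba1c are 76.4 kb apart, with 6 peaks between them, none above a fold enrichment of 20.97 or 193 tags. The medians over all peaks of the list were 27.97 and 198 tags. The strongest peak of Tuba1a also lay within 1 kb of the long non-coding RNA gene B430209F14Rik, and that of Tuba1b overlapped the long non-coding RNA gene Gm41396, so these peaks cannot be given to the tubulin gene alone. The peak of Tuba1c lay near no other annotated gene.

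Of the strongest peaks of the 10 genes, those with the highest and the lowest fold enrichment were both at beta-tubulin genes. Tubb5, which encodes a beta-tubulin made by most dividing cells, had a peak (chr17:35835501-35839654) of 923 tags (864 to 985) with a fold enrichment of 70.9. This was the fourth-highest fold enrichment of the 13462 protein-coding genes with a peak, and the highest tag density of the 10 genes, at 222 tags per kb of peak. Tubb2b, whose product serves neuronal migration in the developing brain, followed in fold enrichment, with 65.1 over a peak of 622 tags (574 to 673; chr13:34128173-34132084). It ranked 45 among the 13462 genes. Its neighbour Tubb2a, a related isotype, had a peak (chr13:34076086-34078621) of 466 tags (425 to 510) with 59.3. The tag intervals of Tubb2a and Tubb2b did not overlap, while their tag densities, 184 and 159 tags per kb, stood in the opposite order.

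Tubb2a and Tubb2b are 49.0 kb apart on chromosome 13. Between their strongest peaks lay 2 weak peaks, 1 of them the second peak of Tubb2b at the far end of that gene, with 22 tags and a fold enrichment of 7.23. The other held 74 tags with 8.49. The strongest peak of Tubb2b also reached the long non-coding RNA gene Gm36500, and the peak of Tubb2a lay near no other gene.

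The remaining beta-tubulin genes ranged widely. Tubb4b, which encodes a broadly made isotype also found in cilia, had 476 tags (434 to 521) with a fold enrichment of 51.8 (chr2:25223228-25226068), at a peak that also lay within 1 kb of Fam166a. Tubb6, a widely made isotype, had 492 tags (449 to 537) with 40.1 (chr18:67390065-67393110), close to the median of all marked protein-coding genes. Tubb4a, an isotype of mature neurons and oligodendrocytes, had 85 tags (67.9 to 105) with 13.3 (chr17:57086826-57087998). By fold enrichment Tubb4a ranked 12515 of the 13462 marked genes. Its upper tag bound of 105 was far below the lower bound of the next gene, 425 at Tubb2a. Per kb of peak, Tubb4a held 72.5 tags and the other 9 genes 159 to 222.

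Tubg1 encodes the gamma-tubulin that nucleates microtubules at centrosomes and spindle poles. Its peak (chr11:101118462-101121535) held 545 tags (500 to 593) with a fold enrichment of 46.3, which equals the upper quartile of marked protein-coding genes. The peak also lay over an end of Retreg3, a gene next to Tubg1, so it cannot be assigned to Tubg1 alone. The related gene Tubg2, on the same chromosome, had no called peak.

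Ordered by tags, the 10 genes fell into 3 runs in which neighbours overlapped in their counting intervals. The first run was Tubb5, Tuba1c and Tuba1a, and the second was Tubb2b, Tuba1b, Tubg1, Tubb6, Tubb4b and Tubb2a. Tubb4a stood alone below them. The gap between the first runs lay between Tuba1a, with a lower bound of 711, and Tubb2b, with an upper bound of 673. Within a run, genes further apart in the order can still differ, as Tubb2b and Tubb2a did. The runs order counts, which grow with peak length, and are not levels of the mark. The first run holds the 3 longest of the strongest peaks (4154, 4994 and 4088 bp). Per kb of peak, Tuba1b of the second run, with 201 tags, stood above Tuba1a with 187 and Tuba1c with 171.

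**Figure D2:**
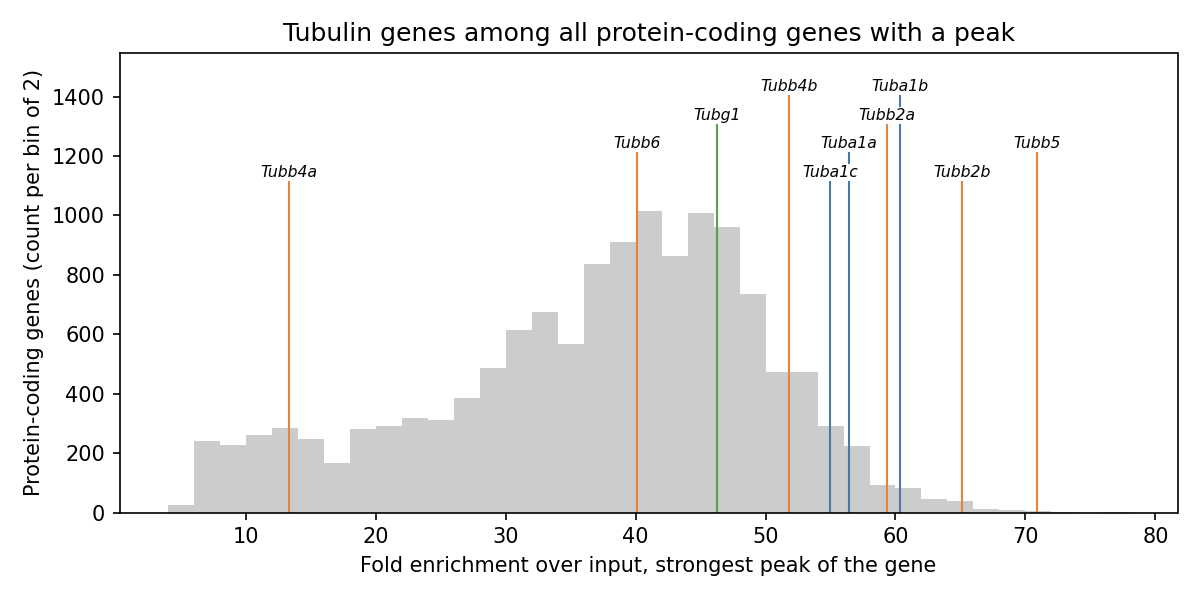
Number of protein-coding genes in bins of fold enrichment of the strongest H3K4me3 peak (grey, 13462 genes), with lines at the values of the 10 tubulin genes. Tubb4a lies in the lower tail at 13.3, Tubb6 at 40.1 is close to the median of 39.1, and 7 genes lie above the 90th percentile of 51.4.

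In each of the 7 genes with an annotated start in the promoter table, a peak lay over the start. This was so for 55.2% of 17492 protein-coding genes with such a start. The summit, the point of most tags, lay inside the gene in all 7, from 150 bp after the start at Tuba1b to 581 bp at Tuba1c, with a median of 274 bp. Over all protein-coding genes with a peak over the start, the median was 213 bp, with quartiles of 111 and 367 bp. In Tubb4a the summit lay 181 bp after the start, within the range of the strong peaks.

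The reach of the peaks differed more than the place of their summits. At Tuba1c the peak ran 4035 bp into the gene and 958 bp before the start, further into the gene than 98.4% of protein-coding genes with a peak over the start. At Tubb5 it ran 2800 bp into the gene and 1353 bp before it. Tuba1a and Tuba1b were the exceptions in shape, with more of the peak before the start (2114 and 1615 bp) than after it (1973 and 1332 bp). Both of these peaks also lay at long non-coding RNA genes, as given above, and a link to their shape was not tested. At Tubb4a the peak ran 774 bp into the gene and 398 bp before it. The medians over all protein-coding genes with a peak over the start were 1317 bp into the gene and 799 bp before it, and 79.9% of those genes had the longer part inside the gene, as did 5 of the 7 tubulin genes.

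**Figure D3:**
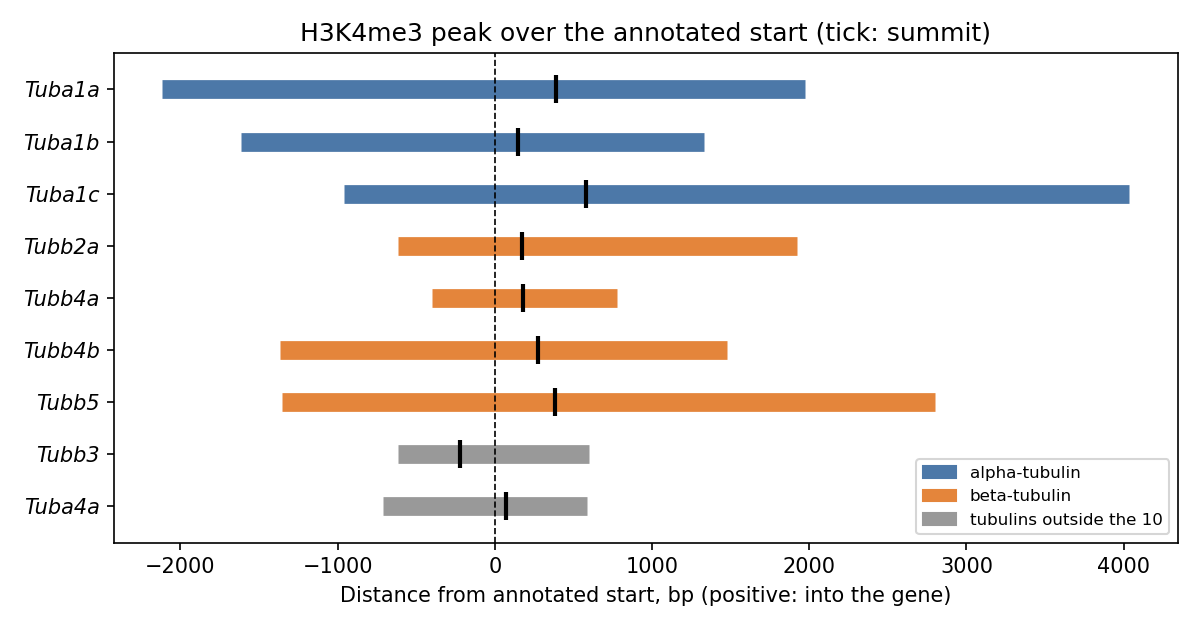
Extent of the H3K4me3 peak over the annotated start of 7 of the 10 tubulin genes and of Tubb3 and Tuba4a (grey), as distance in bp from the start, with positive values inside the gene. Black ticks are peak summits, which lie 150 to 581 bp inside the 7 genes and at -223 bp at Tubb3.

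For the 3 genes without a start in the table, distances to the nearer gene end were used. The summit lay inside each gene, 275 bp from an end of Tubb2b, 449 bp from an end of Tubb6 and 454 bp from an end of Tubg1. The strongest peak covered a large part of the short tubulin genes and of Tuba1c, with 45.0% at Tuba1b, 49.1% at Tuba1c, 51.5% at Tubb2a, 54.01% at Tuba1a, 57.96% at Tubb4b, 63.9% at Tubb5 and 65.2% at Tubb2b. It covered 25.03% of Tubg1, 19.8% of Tubb6 and 10.3% of Tubb4a.

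When peaks 1 kb or less apart were joined, regions at the tubulin genes were 1173 bp (Tubb4a) to 7661 bp (Tubb5) wide, with a median of 3060 bp. The median over protein-coding genes with a peak was 2241.5 bp and the 90th percentile 3897 bp, which 4 of the 10 genes passed. The width of 7661 bp at Tubb5 came from 2 peaks 845 bp apart. The added peak held 253 tags with a fold enrichment of 34.5 and lay within 1 kb of Mdc1, not of Tubb5, and the peak at Tubb5 itself was 4154 bp long. At Tubb2b, 6031 bp likewise included a peak outside the gene window. Tuba1c reached 4994 bp with a single peak, the longest of the 12. Tuba1a reached 4681 bp with its weak inner peak.

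Of the other 10 tubulin genes 5 had a peak, against 61.5% of protein-coding genes, and 2 had one near no other coding gene, against 46.4%. The 5 had a median fold enrichment of 19.5. The highest were Tubd1 (54.3) and Tube1 (41.95), which encode the delta- and epsilon-tubulins of centrioles, and Tuba4a (19.5). The strongest peaks of these 3 genes were each shared with a neighbouring coding gene, Rps6kb1, Fam229b and A630095N17Rik. No peak was called at Tuba3a and Tuba3b, alpha-tubulin genes of testis, at Tubal3, or at Tubb1, the beta-tubulin gene of platelets. Named after their values were seen, the other member without a peak was Tubg2, and the other members with one were Tuba8 (13.02, 65 tags) and Tubb3 (13.02, 73 tags). Tubb3 encodes the beta-tubulin used as a marker of neurons. Its strongest peak had an interval of 57.2 to 91.8 tags, which overlapped that of Tubb4a, and the peak also lay within 1 kb of Mc1r.

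All listed genes for the assembly and folding of tubulin had a peak, against 61.5% of protein-coding genes. Both lists were chosen with earlier results of these data known, so their counts are a description and no test. All 10 genes of the gamma-tubulin ring complex and its partners had a peak, with a median fold enrichment of 40.1. The highest were Tubgcp6 (62.9), a subunit of the ring, Pcnt (50.6), a scaffold of the centrosome, and Tubgcp2 (49.2), another ring subunit. The strongest peak of Tubgcp6 was shared with Hdac10 and that of Tubgcp2 with Zfp511. All 20 genes for tubulin folding had a peak, with a median of 43.6. They cover the chaperonin CCT, prefoldin and the tubulin cofactors. The highest were the prefoldin gene Pfdn1 (65.8), the chaperonin gene Cct2 (65.5) and the prefoldin gene Pfdn4 (55.7). With only peaks near no other coding gene, which 46.4% of protein-coding genes had, the counts were 6 of 10 and 10 of 20, and 8 of the 10 tubulin genes, all except Tubb4b and Tubg1.

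Most of the listed genes that modify tubulin or bind microtubules had a peak. Both lists are selections, not full families, and were chosen with earlier results of these data known. Their counts are a description and no test. Against the 61.5% of protein-coding genes with a peak, 17 of 18 listed modifying genes had one, with a median fold enrichment of 37.6. The highest were Atat1 (55.7), which encodes the alpha-tubulin acetyltransferase, Ttll5 (51.4), a polyglutamylase gene, and Sirt2 (51.0), a deacetylase gene. Each of these 3 peaks was shared with a neighbouring coding gene, 2310061I04Rik, Erg28 and Nfkbib in that order. Ttll6, another polyglutamylase gene, had none. Of 26 genes for proteins that bind microtubules or tubulin 23 had a peak, with a median of 39.8. With only peaks near no other coding gene, the counts were 13 of 18 and 22 of 26, against 46.4%. Katna1 (57.9), a subunit of the severing enzyme katanin, Clasp1 (55.9), a plus-end protein, and Map4 (55.1), a widely made microtubule-associated protein, were the highest. Dcx, Stmn2 and Stmn4, genes of young or mature neurons, had none. Other neuronal genes of this list, named after their values were seen, were marked near the median of all marked genes, 39.1. Among them were Mapt (35.2, 430 tags), Map1b (37.6, 558 tags), Map2 (38.3, 205 tags) and Dclk1 (37.2, 665 tags). Stmn3, also neuronal and named after its value was seen, had a peak of 18 tags with a fold enrichment of 5.79, whereas Stmn1, likewise named after its value was seen and a tubulin-binding gene of dividing cells, had 576 tags with 54.2.

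**Figure D4:**
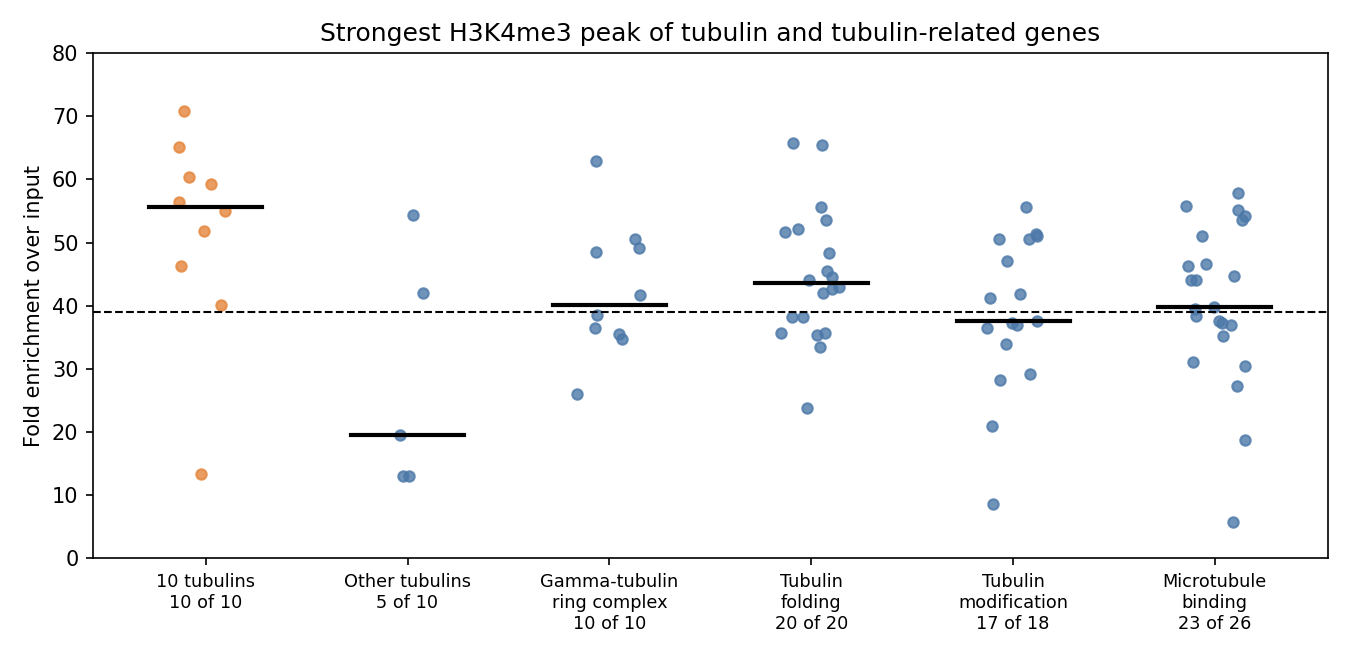
Fold enrichment of the strongest H3K4me3 peak at each gene with a peak, for the 10 tubulin genes (orange) and 5 related gene lists (blue), with the number of genes with a peak under each name. Black bars are medians over genes with a peak, 55.7 for the 10 tubulin genes and 19.5 for the other tubulins. The dashed line is the median of all protein-coding genes with a peak (39.1). Genes and lists were chosen with earlier results of these data known.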

How the data were processed

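H3K4me3 ChIP-seq of mouse neural progenitor cells was analysed from the authors' peak list. Per the file header, peaks were called on 1 library against the input with MACS 1.4.2 (p cutoff 1e-05, 1 tag kept per position), whereas the submitters' processing notes name MACS2 2.1.0, and they name mm10 as the build. The column layout is that of the version in the header. The header gives a tag size of 25 bp. No aligner is named in the sources used here, and the gene table has no exons. The deposited file gives, per peak, a tag count that is not normalized, a fold enrichment (ratio to the input background), a score (the -log10 p multiplied by 10), a percent false discovery rate, and the length and summit in bp. The score of 3100 is shared by 20.4% of peaks and by 9 of the 10 genes' strongest peaks, so it was not used for ranking. A weak site under the p cutoff is not listed, and the smallest peak held 13 tags.

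Peaks were joined to RefSeq genes (GRCm38.p6) in Python 3.11.15 with pandas 2.3.3. The strongest peak of a gene is the one with the highest fold enrichment. Where the promoter table gives a gene several starts, the outermost was used. The join was tested on simulated peaks. No protein table was used, so the planned protein comparison was not made. The named genes were all 10 tubulin genes and, in each related list, the 3 members with the highest fold enrichment and up to 4 without a peak, and the neighbours that share a peak. A marker gene of the oligodendrocyte lineage is not reported here. Members and lists were chosen with earlier results of these data known. No molecular identifiers are named, and PCR copies are not separate molecules, so intervals cover counting error only.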

Additional observations from a re-analysis of the deposited data

How the results depend on the processing

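All 10 tubulin genes kept a peak with no window, with 5 kb, with a score of at least 100, with a fold enrichment of at least 10 and with the summit inside the window, and the highest fold enrichment of each gene was the same in these settings. The settings with no window and with the 2 cuts could not change these values. Each strongest peak overlaps its gene, and the weakest, at Tubb4a, has a score of 294.49 and a fold enrichment of 13.3. The same settings, in that order, gave a peak to 13305, 14029, 13175, 12968 and 13269 of 21887 protein-coding genes. With only peaks near 1 coding gene, 8 of the 10 tubulin genes had a peak. The counts fell to 2 of 10 for other tubulins, 6 of 10 for the gamma-tubulin ring complex and 10 of 20 for tubulin folding. Over all protein-coding genes the count fell too, from 13462 to 10155 of 21887, or 46.4%. With peaks not joined, the widths were 4088 bp at Tuba1a, 3912 bp at Tubb2b and 4154 bp at Tubb5. With a gap of 3 kb they were 7802 bp at Tubb2b and 5785 bp at Tubb4b. Tags summed over all peaks of a gene stayed inside the counting interval of its strongest peak. No paired analysis was possible because there is 1 H3K4me3 library and no test. With 1 library, no replicate could be left out.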

Other observations

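The 6 tubulin pseudogenes examined were those of the RefSeq table whose symbol joins a tubulin name to -ps (Tubb4b-ps1, Tubb4b-ps2, Tubb2a-ps1, Tubb2a-ps2, Tubb3-ps1 and Tuba5-ps). None of the 6 had a peak within 1 kb, where 2.51% of all 10609 pseudogenes had one. At that share, no peak among 6 pseudogenes is an unremarkable count. Tags were 25 bp long and no aligner is named, so how tags matching both a gene and a pseudogene were placed is not known. This set was chosen after the values of the genes were seen.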
